A study of Mus musculus with 5 samples.

Results

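The nuclear genes for respiratory complexes II to V were followed in perfused mouse hearts, together with the gene for cytochrome c. Genes were chosen by symbol: Sdha to Sdhd for complex II, Uqcr genes and Cyc1 for complex III, Cycs for cytochrome c, Cox4 to Cox8 genes for complex IV and Atp5 genes for complex V. Only probes annotated with a single gene symbol were used, and for a symbol with several probes the probe of highest mean over the 5 arrays was kept. This gave 49 genes of the 22180 genes with such a probe, drawn from 59 probes: 4 for complex II, 9 for complex III, 1 for cytochrome c, 17 for complex IV and 18 for complex V. The 49 include the pseudogenes Uqcrh-ps1 and Atp5c1-ps. Uqcr10 and Cox6c have only probes annotated with a further symbol and were not analysed here, and neither were the subunits encoded by mitochondrial DNA.

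The antagonist group was 3 hearts of wild-type C57Bl6J mice injected into the peritoneum with an antagonist of REV-ERB alpha, given in the labels as 10 µM, 4 h and 1 h before the heart was perfused. The sham group was 2 hearts of the same strain and genotype without the antagonist. All 5 were taken at ZT12 (zeitgeber time, in hours), perfused on a Langendorff apparatus, which feeds the isolated heart through the aorta, for 20 min, left without flow for 20 min and reperfused for 20 min before freezing. Every heart thus carries ischemia and reperfusion, the compound is not named, and an injection of vehicle is not stated for the sham mice. The labels call the samples biological replicates and give neither age nor sex.

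The respiratory chain passes electrons from NADH and succinate to oxygen and uses the energy to pump protons across the inner mitochondrial membrane. Complex II (succinate dehydrogenase) is also an enzyme of the citric acid cycle and pumps no protons. Complex III hands electrons to cytochrome c, complex IV (cytochrome c oxidase) delivers them to oxygen, and complex V (ATP synthase) lets the protons flow back to make ATP. Heart muscle is packed with mitochondria and uses isoforms of several complex IV subunits that liver and most other tissues lack. During no-flow ischemia succinate accumulates, and its rapid oxidation by complex II at reperfusion is known as a source of oxygen radicals. REV-ERB alpha, encoded by Nr1d1, is a repressor of the circadian clock that has also been linked to mitochondrial content in muscle.

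All values are log2 expression values that the authors made with RMA (robust multi-array average), and differences are antagonist minus sham on that scale. With 5 arrays, precision is limited by their number. The 18 heart muscle markers all passed the level filter of 3.42, and their summed level (log2 of the summed linear values) was 15.91 to 15.95 in antagonist hearts, against 15.86 and 15.95 in sham hearts. The arrays were not alike in other respects. Antagonist replicate 2 had the highest summed level of the 9 measured atrial markers (13.6, with 12.01 and 11.97 on the other antagonist arrays, and 12.195 and 11.855 on the sham arrays) and of the 9 measured adipocyte markers (11.5, against 11.2 to 11.3). The 8 mesothelium markers were also highest there (8.10, against 7.15 to 7.24), as was the brown fat gene Ucp1 (6.49, against 3.29 to 3.47). The summed level of the 7 measured brown fat markers was not (12.32, against 12.29 on the other antagonist arrays, and 12.33 and 12.375 on the sham arrays). That sum includes Cox7a1 and Cox8b, which are among the 49 genes. Antagonist replicate 2 minus the mean of the other 4 arrays had a median of 0.33 over the 7. All 9 atrial, 8 of the 9 adipocyte and 6 of the 8 mesothelium markers had means at or above the level filter, and what part these cells had in the values below was not tested. In such whole tissue, fewer cells of a type and less RNA per cell cannot be told apart. Of the 49 genes 22 had exactly equal values on some of the arrays, as the median polish in RMA can give, and for such genes the standard error may not measure the spread between hearts.

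No gene of complexes II to V passed the test between antagonist and sham hearts. In the limma fit over the 15294 genes tested, 0 of the 44 tested members passed an adjusted p of 0.05, as did 0% of all tested genes, and the smallest adjusted p of a member was 0.64. Before adjustment, Cox7b and Cox8b had a p under 0.05, both lower with the antagonist. That is 2 of 44 members, where 4.6% of all tested genes (704) had such a p, 2.23% higher and 2.37% lower. The differences were small: 32 of the 49 were positive and 17 negative, with a median of 0.03, beside a median of 0.00 over all tested genes, of which 47.7% were positive and 46.3% negative. By size, 3 of the 49 exceeded 0.3 in either direction.

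Most of these differences were smaller than the distance between the sham hearts. For 37 of the 49 genes the gap between sham replicates 1 and 2 exceeded the difference between the groups. Among the 44 tested members this was 75.0%, against 58.4% of all tested genes. Of the 265 tested genes with a mean of 10 or more, a bound chosen after the values were seen, it was 70.6%. A gene with equal values in the sham hearts cannot count here, and such genes were a larger share of all tested genes. Sham replicate 1 lay below sham replicate 2 for 30 of the 44 members and above it for 11. The counts were 6523 and 5640 of the 15294 tested genes, and 151 and 105 of the 265. The higher share of the members is thus partly a matter of equal values. Sham replicate 1 was the lowest of the 5 arrays for 26 of the 44 tested members (59.1%) and the highest for 9 (20.5%). Over all tested genes it was the lowest for 25.9% and the highest for 22.3%, and over those 265 bright genes for 41.1% and 27.5%. Arrays tied for the lowest or highest value were not counted. Antagonist replicate 1 was the highest array for 17 of the 44 tested members and sham replicate 2 for 14. Over the 15294 tested genes these arrays were the highest for 2387 and 2824.

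**Figure D1:**
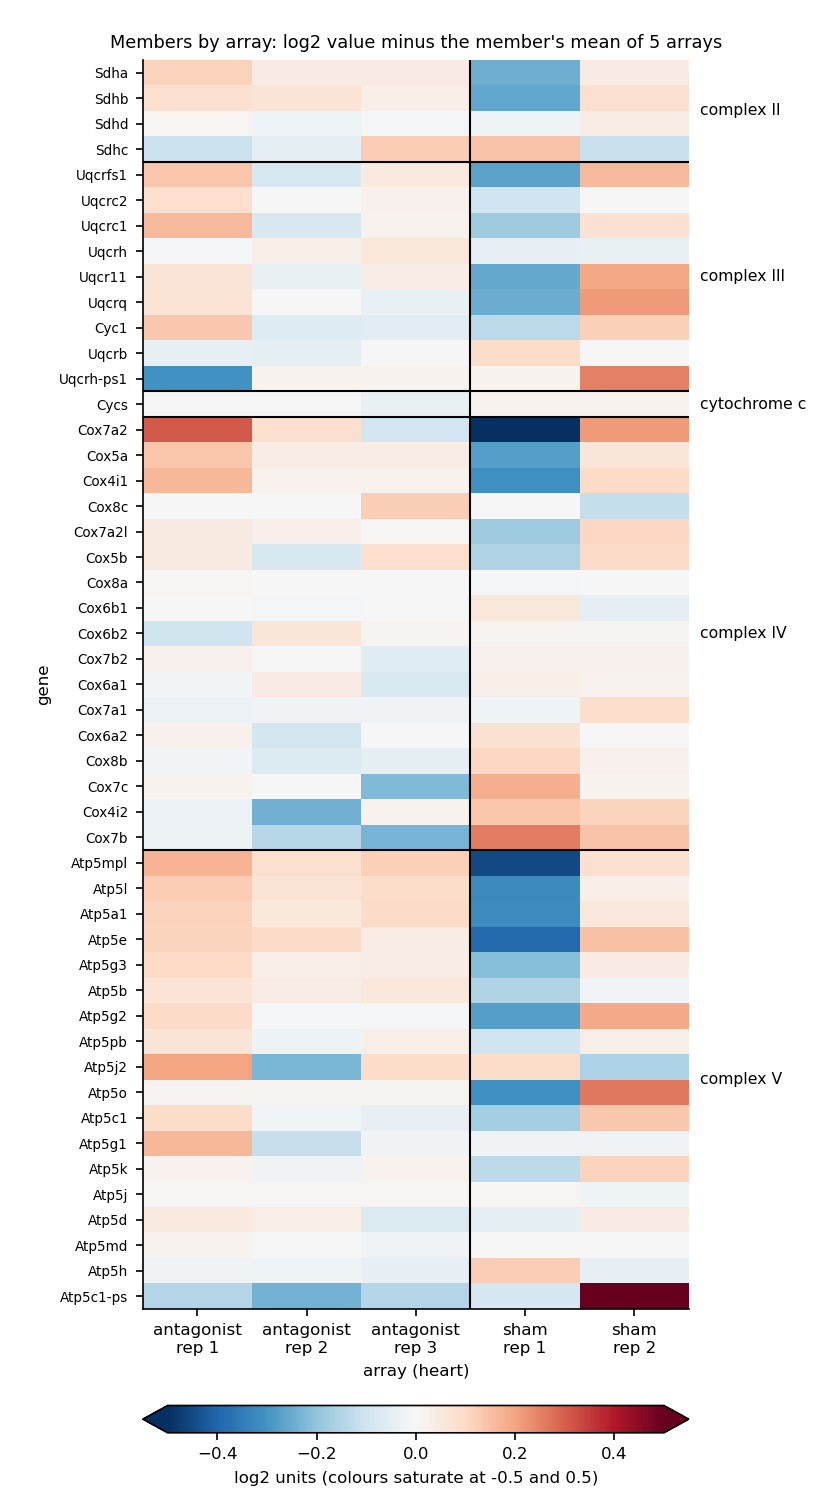
Log2 value of each of the 49 genes on each array (columns) minus the gene's mean over the 5 arrays, in colour, with the genes (rows) grouped by complex and ordered by the antagonist minus sham difference. Sham replicate 1 is the lowest array for 7 of the 9 complex III genes and 11 of the 18 complex V genes, while complex IV holds 6 genes lowest and 6 highest on that array.

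The start regions of the genes were read for a half-site that the antagonised receptor binds, though not it alone. They were also read for motifs of NRF1 and GABP, known activators of respiratory genes. RefSeq windows (build GRCm38.p6) matched 36 of the 49 genes, and the 250 bases before each start were searched on both strands. AGGTCA, the half-site that REV-ERB and ROR receptors bind, was in 6 of 39 windows (15.4%), against 14% of all 32851 windows. The NRF1 palindrome was in 3 (7.69%, against 0.782%), those of Atp5k, Cox6a1 and Atp5g2. GGAAGTG, a site of the GABP kind, was in 5 (12.8%, against 8.55%). None of these motifs contains another, and a match is only a run of letters.

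Windows are printed for the genes described below whose groups did not overlap and which hold a motif (Cox7b, Atp5l and Uqcrh), and for Sdhb, which holds AGGTCA and GGAAGTG. They lie at chrX:106015450-106015699 on the plus strand for Cox7b, chr9:44920743-44920992 on the minus strand for Atp5l, chr4:116075071-116075320 on the minus strand for Uqcrh and chr4:140961021-140961270 on the plus strand for Sdhb, each 5′ to 3′ in the direction of the gene and ending at the base before its start. Capitals mark AGGTCA and GGAAGTG on either strand.
Cox7b: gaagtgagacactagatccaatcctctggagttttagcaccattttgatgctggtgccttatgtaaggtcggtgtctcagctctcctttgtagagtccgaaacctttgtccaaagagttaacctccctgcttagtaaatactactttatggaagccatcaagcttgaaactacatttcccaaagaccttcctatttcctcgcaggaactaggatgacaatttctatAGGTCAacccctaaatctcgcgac
Atp5l: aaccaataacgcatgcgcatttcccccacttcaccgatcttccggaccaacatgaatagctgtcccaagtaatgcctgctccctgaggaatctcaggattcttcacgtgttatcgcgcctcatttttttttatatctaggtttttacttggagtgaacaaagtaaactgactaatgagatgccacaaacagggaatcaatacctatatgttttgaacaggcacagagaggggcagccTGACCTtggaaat
Uqcrh: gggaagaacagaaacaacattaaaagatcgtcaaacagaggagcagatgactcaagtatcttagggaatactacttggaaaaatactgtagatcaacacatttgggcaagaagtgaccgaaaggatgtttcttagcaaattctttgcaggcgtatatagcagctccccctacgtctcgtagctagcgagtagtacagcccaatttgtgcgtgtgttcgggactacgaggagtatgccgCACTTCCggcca
Sdhb: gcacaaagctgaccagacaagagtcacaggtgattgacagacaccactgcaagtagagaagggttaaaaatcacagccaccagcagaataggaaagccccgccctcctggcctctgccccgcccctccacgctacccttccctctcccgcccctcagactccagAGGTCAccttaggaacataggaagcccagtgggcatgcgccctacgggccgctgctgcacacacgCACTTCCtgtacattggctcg
AGGTCA begins 24 bases before the start of Cox7b and, on the other strand, 13 bases before that of Atp5l. The difference was -0.33 for Cox7b and 0.24 for Atp5l (limma adjusted p of 0.64 each), and -0.28 and 0.06 against sham replicate 2 alone. The other genes with AGGTCA differed, with both sham hearts used, by 0.15 (Sdhb), 0.14 (Atp5g3), 0.04 (Cox5b) and -0.03 (Cox7b2, below the level filter). What part the half-site had in any of these genes was not tested. Uqcrh holds GGAAGTG on the other strand 12 bases before its start. Sdhb holds AGGTCA 86 bases and, on the other strand, GGAAGTG 21 bases before its start.

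In complex II the catalytic subunits had positive differences and the membrane anchors small negative ones, and none passed the test. Sdha, the flavoprotein that oxidises succinate, measured 11.62, 11.55 and 11.55 in antagonist hearts, against 11.26 and 11.55 in sham hearts. Sdhb, the iron-sulfur subunit that carries the electrons onward, measured 10.39, 10.37 and 10.34 in antagonist hearts, against 10.05 and 10.39 in sham hearts. For both, sham replicate 1 alone was low, and sham replicate 2 lay at the level of the antagonist hearts. The differences were 0.17 ± 0.10 (SE) for Sdha and 0.15 ± 0.11 for Sdhb, with limma adjusted p of 0.64 each. Sdhc, an anchor in the membrane, measured 9.52, 9.57 and 9.75 in antagonist hearts, against 9.77 and 9.51 in sham hearts. Here sham replicate 1 was the highest array and sham replicate 2 the lowest, so that the groups overlapped completely (-0.03 ± 0.12). Sdhd, the other anchor, measured 10.06, 10.03 and 10.04 in antagonist hearts, against 10.03 and 10.09 in sham hearts, within a narrow range (-0.01 ± 0.03). Against sham replicate 2 alone the sign turned for Sdhb (-0.02) and Sdhc (0.10), and against sham replicate 1 alone for Sdhd (0.02). The split between catalytic subunits and anchors thus depended on the sham heart used.

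Complex III had 7 genes with a positive and 2 with a negative difference, with a median of 0.05. Against sham replicate 2 alone the count was 2 positive and 7 negative. Cyc1, the cytochrome that passes electrons on to cytochrome c, measured 9.66, 9.46 and 9.48 in antagonist hearts, against 9.39 and 9.65 in sham hearts. The groups overlapped, with sham replicate 1 lowest and antagonist replicate 1 highest, and the difference was 0.01 ± 0.11, which became -0.0006 after a second quantile normalization. Uqcrfs1, the Rieske iron-sulfur protein, measured 7.62, 7.41 and 7.53 in antagonist hearts, against 7.22 and 7.65 in sham hearts. The sham hearts thus held both the lowest and the highest value of Uqcrfs1, and the difference was 0.09 ± 0.16. Uqcrc2, a core protein on the matrix side, measured 11.19, 11.10 and 11.12 in antagonist hearts, against 10.9999 and 11.10 in sham hearts. The difference was 0.09 ± 0.05, and that of the other core protein, Uqcrc1, was 0.08 ± 0.12, with sham replicate 1 the lowest array for both. The small subunits Uqcr11 (0.05 ± 0.16) and Uqcrq (0.03 ± 0.16) had their extremes on the sham arrays too.

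Of the complex III genes, Uqcrh and Uqcrb were those whose groups did not overlap, in opposite directions. Uqcrh, the hinge protein that helps cytochrome c dock, measured 8.56, 8.59 and 8.62 in antagonist hearts, against 8.52 and 8.53 in sham hearts. The difference was 0.07 ± 0.02, with a limma adjusted p of 0.64 and an exact two-sided permutation p of 0.2 over the 10 divisions of the 5 arrays. Uqcrb, a small subunit near the ubiquinone site, measured 11.70, 11.70 and 11.74 in antagonist hearts, against 11.84 and 11.75 in sham hearts. It was lower in each antagonist heart (-0.08 ± 0.04), though antagonist replicate 3 and sham replicate 2 lay close together. Its exact permutation p was 0.1, the smallest that this design allows, and its limma adjusted p was 0.64. The pseudogene Uqcrh-ps1 measured 2.25, 2.57 and 2.57 in antagonist hearts, against 2.57 and 2.81 in sham hearts, below the level filter, and was not tested.

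Cytochrome c itself gave a small negative difference on its brightest probe. Cycs measured 11.87, 11.86 and 11.83 in antagonist hearts, against 11.88 and 11.88 in sham hearts. The groups did not overlap (-0.03 ± 0.02, limma adjusted p = 0.64, exact permutation p = 0.3), and the sign turned to 0.03 after a second quantile normalization. The other 4 probes of Cycs gave differences of -0.07 to -0.15. Among these, 2 probes held identical values on every array, and 3 had sham replicate 1 above sham replicate 2 by 0.31 to 0.42. Cycs has many near-identical processed copies in the mouse genome, and how the probes divide between them is uncertain.

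Complex IV was the one complex with a negative median (-0.02, the value of the dim testis form Cox6b2), with 7 genes positive and 10 negative. The counts were 4 and 13 against sham replicate 2 alone, where the 44 tested members had 16 and 28. Against sham replicate 1 alone they were 8 and 9 for complex IV. Cox4i1 and Cox5a were among the positive genes. Cox4i1, the common form of the largest nuclear subunit, measured 10.61, 10.47 and 10.47 in antagonist hearts, against 10.14 and 10.55 in sham hearts. Cox5a, which sits on the matrix side, measured 10.69, 10.59 and 10.59 in antagonist hearts, against 10.28 and 10.61 in sham hearts. In both genes sham replicate 1 was low and sham replicate 2 lay among the antagonist hearts, and the differences were 0.17 ± 0.15 and 0.18 ± 0.12 (limma adjusted p of 0.67 and 0.64). Cox5b, which binds zinc, differed by 0.04 ± 0.10, while a dimmer second probe of it gave -0.28.

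Cox7b gave the largest difference of complex IV and the smallest p of all members. Cox7b, a small membrane subunit needed for assembly of the complex, measured 10.04, 9.92 and 9.83 in antagonist hearts, against 10.32 and 10.21 in sham hearts. Antagonist hearts averaged 9.93 ± 0.10 (SD, n = 3), whereas sham hearts averaged 10.26 ± 0.08 (SD, n = 2). The difference was -0.33 ± 0.08 (SE), or 0.793-fold. The unadjusted limma p was 0.0171, the adjusted p 0.64 and the exact permutation p 0.1. Every antagonist heart lay below both sham hearts, and the difference was -0.28 against sham replicate 2 alone and -0.39 against sham replicate 1 alone. A second, dimmer probe of Cox7b gave -0.24, and its groups overlapped, since antagonist replicate 2 (4.92) lay above sham replicate 2 (4.91).

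Complex IV holds pairs of tissue isoforms. The heart and muscle forms had small negative differences, but a negative sign was not particular to them. Of the other forms, Cox4i2, Cox6a1, Cox6b1, Cox6b2 and Cox7b2 were negative too, and Cox4i1, Cox7a2, Cox7a2l, Cox8a and Cox8c positive. Cox8b, the form of subunit VIII found in heart and muscle of the mouse, measured 10.70, 10.64 and 10.67 in antagonist hearts, against 10.82 and 10.73 in sham hearts. Its groups did not overlap (-0.10 ± 0.04, unadjusted limma p = 0.0458, adjusted p = 0.64, exact permutation p = 0.1). Cox8a, the common form, measured 9.37, 9.36 and 9.36 in antagonist hearts, against 9.36 and 9.36 in sham hearts, nearly flat (0.01 ± 0.01). Cox7a1, the heart form of subunit VIIa, measured 11.62, 11.63 and 11.63 in antagonist hearts, against 11.63 and 11.74 in sham hearts. Here sham replicate 2 alone was high, and the difference of -0.05 ± 0.04 became 0.0022 against sham replicate 1 alone.

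The liver form Cox7a2 measured 9.56, 9.33 and 9.16 in antagonist hearts, against 8.75 and 9.47 in sham hearts. This was the widest spread of any tested member, with sham replicate 1 lowest and a difference of 0.24 ± 0.28. Cox7a2l, which helps join complexes III and IV into supercomplexes, measured 6.58, 6.56 and 6.54 in antagonist hearts, against 6.36 and 6.64 in sham hearts. Its sham hearts held the lowest and the highest value (0.06 ± 0.10). Cox6a2, the heart form of subunit VIa, measured 11.90, 11.79 and 11.88 in antagonist hearts, against 11.96 and 11.88 in sham hearts, a difference of -0.06 ± 0.05 that turned to 0.02 after a second quantile normalization. The liver form Cox6a1 measured 10.57, 10.62 and 10.51 in antagonist hearts, against 10.61 and 10.60 in sham hearts (-0.04 ± 0.04). For these genes the groups overlapped, as they did for Cox6b1, the common form of subunit VIb, which measured 9.97, 9.96 and 9.97 in antagonist hearts, against 10.02 and 9.92 in sham hearts (-0.01 ± 0.04).

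Cox4i2, the alternative form of subunit IV known from lung and from the response to low oxygen, was the other complex IV gene whose groups did not overlap. Cox4i2 measured 5.07, 4.86 and 5.12 in antagonist hearts, against 5.24 and 5.21 in sham hearts. The antagonist hearts were lower, most of all antagonist replicate 2, with a difference of -0.21 ± 0.09, a limma adjusted p of 0.64 and an exact permutation p of 0.2. Leaving out antagonist replicate 2, on which atrial, adipocyte and mesothelium markers were high, gave -0.13. The testis forms were dim. Cox6b2 measured 3.41, 3.57 and 3.52 in antagonist hearts, against 3.52 and 3.52 in sham hearts, and its mean lay just above the level filter (-0.02 ± 0.06). Cox8c measured 2.42, 2.42 and 2.55 in antagonist hearts, against 2.42 and 2.31 in sham hearts, below the filter, as was Cox7b2 (2.16 to 2.24), and neither was tested. Cox7c, a small membrane subunit, differed by -0.17 ± 0.11 on a probe of 4.57 to 4.97.

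Across the 44 tested members, the groups did not overlap for 3 with higher values in antagonist hearts (6.82%) and for 5 with lower values (11.4%). Among all tested genes the shares were 6.19% and 6.33%. A gene with the same value in both groups cannot count here, and equal values on some arrays were found for 38.6% of the tested members and 73.9% of all tested genes.

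**Figure D2:**
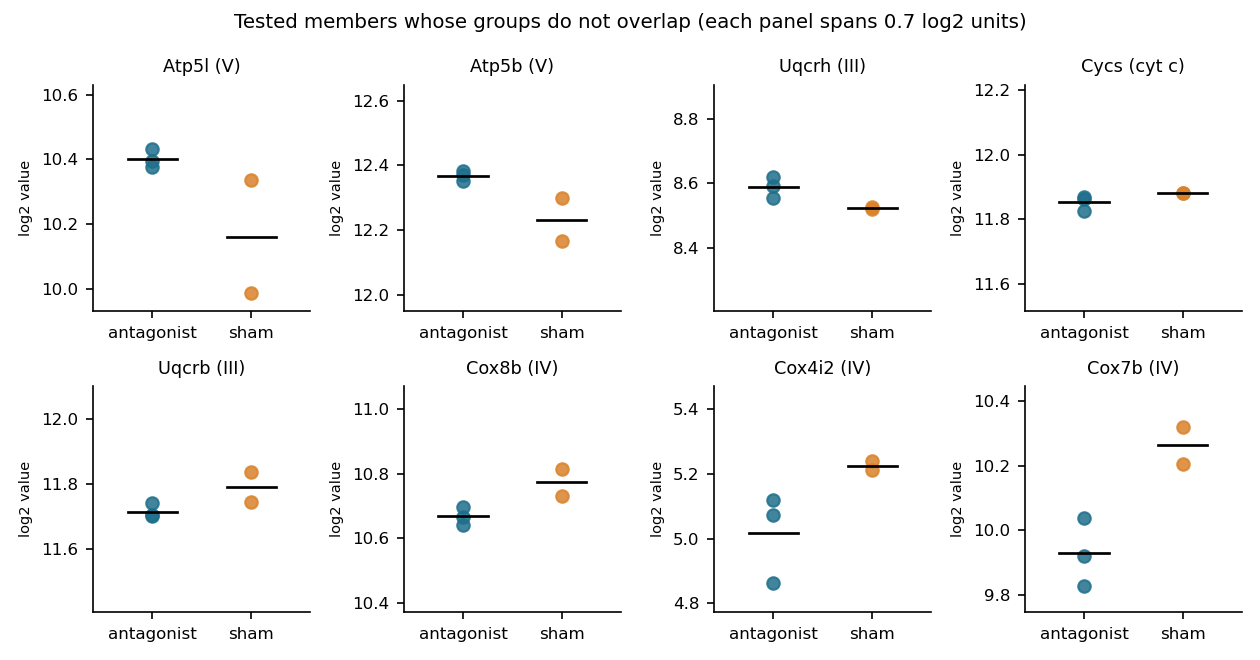
Log2 values (vertical axes, each spanning the same 0.7 log2 units) of the 8 tested genes whose antagonist (3 points) and sham (2 points) hearts do not overlap, with bars at the group means. Atp5l, Atp5b and Uqcrh lie higher in the antagonist hearts, and Cycs, Uqcrb, Cox8b, Cox4i2 and Cox7b lie lower, by 0.03 to 0.33.

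Complex V had 16 of 18 genes positive, with a median of 0.04. The count was 10 positive and 8 negative against sham replicate 2 alone, and 11 and 7 without antagonist replicate 1. Atp5b, the catalytic beta subunit, measured 12.38, 12.35 and 12.37 in antagonist hearts, against 12.16 and 12.30 in sham hearts. Atp5l, a subunit of the membrane part, measured 10.43, 10.38 and 10.40 in antagonist hearts, against 9.99 and 10.34 in sham hearts. In both genes every antagonist heart was above both sham hearts, and the differences were 0.14 ± 0.05 and 0.24 ± 0.12, with limma adjusted p of 0.64 and exact permutation p of 0.1 each. Against sham replicate 2 alone they were 0.07 and 0.06. Atp5mpl, a small protein of the membrane part, measured 10.15, 10.05 and 10.09 in antagonist hearts, against 9.52 and 10.05 in sham hearts. Its difference of 0.31 ± 0.18, or 1.24-fold, was the largest positive one of all members, and sham replicate 2 equalled antagonist replicate 2 exactly.

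The other subunits of the catalytic head and its shaft had groups that overlapped. Atp5a1, the alpha subunit, measured 12.16, 12.10 and 12.14 in antagonist hearts, against 11.73 and 12.10 in sham hearts. Sham replicate 1 alone was low, with a difference of 0.22 ± 0.13. Atp5e, the epsilon subunit, measured 8.54, 8.52 and 8.46 in antagonist hearts, against 8.04 and 8.57 in sham hearts, and here sham replicate 2 was the highest array (0.20 ± 0.18). Atp5c1, the gamma subunit of the shaft (0.03 ± 0.11), and Atp5d, the delta subunit (0.01 ± 0.05), were near 0, but a second probe of Atp5d gave 0.23, with sham replicate 1 at 7.69 and sham replicate 2 at 8.84.

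The proton-carrying ring of complex V is built of a single protein made from 3 genes. Atp5g2 measured 10.35, 10.25 and 10.25 in antagonist hearts, against 9.98 and 10.44 in sham hearts. Atp5g3 measured 9.59, 9.52 and 9.52 in antagonist hearts, against 9.27 and 9.53 in sham hearts. Atp5g1 measured 6.34, 6.06 and 6.16 in antagonist hearts, against 6.16 and 6.16 in sham hearts. Sham replicate 1 was low for Atp5g2 and Atp5g3 and within the other arrays for Atp5g1, and the differences were 0.07 ± 0.16, 0.14 ± 0.09 and 0.03 ± 0.10.

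The peripheral stalk, which holds the head still, included the one subunit gene of complex V with a negative difference. Atp5h, subunit d of the stalk, measured 11.95, 11.94 and 11.92 in antagonist hearts, against 12.09 and 11.93 in sham hearts. Sham replicate 1 was its highest array, opposite to Atp5a1 and Atp5b, and the difference was -0.07 ± 0.06, while a dimmer second probe gave 0.02. Atp5o, which ties the stalk to the head, measured 5.25, 5.25 and 5.25 in antagonist hearts, against 4.92 and 5.50 in sham hearts. All antagonist hearts had the same value of Atp5o, and the sham hearts lay on either side of it (0.04 ± 0.19). Atp5pb, subunit b of the stalk, differed by 0.06 ± 0.05 and Atp5j by 0.01 ± 0.01. In the membrane part Atp5k (0.02 ± 0.08) and Atp5md (0.0004 ± 0.02) did not differ by more than their errors. Atp5j2, at 3.07 to 3.50, had a mean below the level filter and was not tested. The pseudogene Atp5c1-ps measured 2.71, 2.62 and 2.71 in antagonist hearts, against 2.77 and 3.47 in sham hearts, also below it, with sham replicate 2 alone high.

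The size of the medians, and for complex III the sign, depended on which sham heart was used. Against sham replicate 1 alone the median difference was 0.16 for complex II, 0.14 for complex III, -0.02 for complex IV and 0.16 for complex V. Against sham replicate 2 alone it was 0.0029, -0.11, -0.03 and 0.0060. Over the 44 tested members the median was 0.14 in the first case and -0.03 in the second, beside 0.00 over all tested genes in both. Over all 49, dim genes included, it was 0.07 and -0.03. The complex IV medians were the values of the dim testis forms Cox6b2 (-0.0222) and Cox7b2 (-0.0342). Each of these had equal values in the sham hearts, so its difference could not change with the sham heart used. By count, complex IV had 8 positive and 9 negative genes against sham replicate 1 alone, and 4 and 13 against sham replicate 2 alone. For 23 of the 49 genes the sign of the difference itself turned between the sham hearts, for 25 it did not, and for Atp5j the value was 0 against sham replicate 1.

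With a single sham array the fit also made calls. Without sham replicate 2, limma gave an adjusted p under 0.05 for 8 members higher in the antagonist hearts (Atp5a1, Atp5b, Atp5e, Atp5l, Atp5mpl, Atp5o, Cox7a2l and Sdhb) and 2 lower (Atp5h and Cox6b1). These 10 are 22.7% of the 44, where 13.5% of all tested genes passed, 7.13% higher and 6.33% lower. Without sham replicate 1 it did so for 0 higher and 2 lower (Atp5o and Cox7a1), or 4.55%, where 8.62% of all tested genes passed, 3.94% higher and 4.69% lower. Atp5o therefore passed in opposite directions, at 0.32 and -0.25. In these fits the lone sham heart is assumed to vary like the antagonist hearts. Of the genes called, Atp5o, Cox7a1 and Cox6b1 had equal values on some antagonist arrays.

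**Figure D3:**
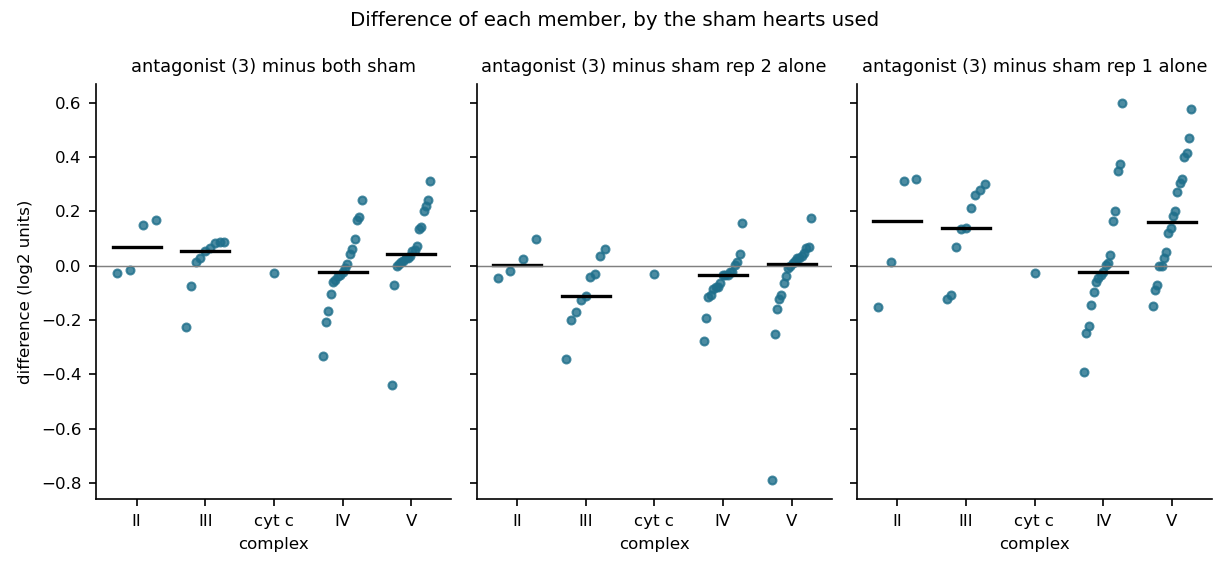
Difference of each gene (points, log2 units) by complex (horizontal axis), for the 3 antagonist hearts minus both sham hearts (left), minus sham replicate 2 alone (middle) and minus sham replicate 1 alone (right), with bars at the medians. The median of complex V is 0.04, 0.0060 and 0.16 in the panels from left to right, and that of complex III is 0.05, -0.11 and 0.14.

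Other mitochondrial genes were set beside these. Of 32 nuclear complex I subunit genes measured, 0 passed the adjusted threshold in either direction, 18 were positive and 14 negative, and the median difference was 0.0084. The complex I genes of smallest p were Ndufa11 (-0.20 ± 0.05), Ndufa7 (-0.20 ± 0.08) and Ndufc2 (0.14 ± 0.08). Of 17 citric acid cycle and pyruvate dehydrogenase genes, 0 passed, 14 were positive and 2 negative, with a median of 0.08, and sham replicate 1 was the lowest array for 14. Against sham replicate 2 alone the median was -0.02, with 5 positive and 10 negative, and against sham replicate 1 alone it was 0.26. Suclg1, of the step that makes succinate, differed by 0.26 ± 0.14, Idh3a by 0.15 ± 0.09 and Pdhb by 0.07 ± 0.04. Against sham replicate 2 alone Suclg1 differed by 0.07 and Idh3a by 0.03.

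Sham replicate 1 minus the other arrays' mean had a median over genes of -0.17 for complex II, -0.17 for complex III, -0.18 for complex V, -0.08 for complex I and -0.27 for the citric acid cycle genes, and 0.02 for complex IV. The same measure was -0.03 for the heart muscle markers, -0.02 for the assembly factors and -0.02 for the 265 tested genes with a mean of 10 or more, a bound chosen after the values were seen. Even so, sham replicate 1 was the lowest array for 9 of the 18 heart muscle markers (highest for 1) and 13 of the 36 assembly factors (highest for 8). In complex IV it was the lowest for 6 of the 17 genes and the highest for 6, so the median of 0.02 there is not a level that these genes shared. It was the lowest for 41.1% of the 265 genes (highest for 27.5%), against 25.9% of all tested genes (highest for 22.3%). The summed level of the 10 skeletal muscle markers, 6 of them at or above the level filter, was 10.95 to 11.07 in antagonist hearts, against 10.65 in sham replicate 1 and 11.13 in sham replicate 2. That gap between the sham hearts lay in Ckm, muscle creatine kinase, which heart muscle also expresses (9.68 in sham replicate 1 and 10.58 in sham replicate 2). Over the list, 6 of the 10 markers were higher in sham replicate 1 than in sham replicate 2 and 2 were lower.

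Factors that assemble the complexes and regulators of mitochondrial number gave 0 calls as well. Of 36 assembly factors measured, 16 were positive and 20 negative, with a median of -0.01. Cox18, which inserts a complex IV subunit into the membrane, differed by 0.13 ± 0.04, Pet100, needed for complex IV, by -0.16 ± 0.06 and Sdhaf1, needed for complex II, by -0.14 ± 0.08. Of 21 regulators 14 were positive and 7 negative, with a median of 0.02. The coactivator gene Ppargc1a differed by 0.16 ± 0.13, Ppargc1b by -0.14 ± 0.07, Esrra by 0.09 ± 0.12, Nrf1 by 0.0028 ± 0.01, Gabpa by -0.13 ± 0.09 and Tfam by -0.11 ± 0.16. For Ppargc1a, Esrra and Tfam the sign turned between the sham hearts (0.35, -0.09 and -0.34 against sham replicate 2 alone, -0.03, 0.26 and 0.12 against sham replicate 1 alone). Gabpa differed by -0.0052 against sham replicate 2 alone and by -0.26 against sham replicate 1 alone. Ppara, a receptor for fatty acids, differed by 0.34 ± 0.20, which was 0.06 against sham replicate 2 alone. Atpif1, the inhibitor protein of complex V, differed by -0.0018 ± 0.01. Ndufa4, now counted with complex IV, differed by 0.18 ± 0.12, and its sham replicate 1 was again low (11.17, against 11.52 to 11.55 on the other arrays).

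**Figure D4:**
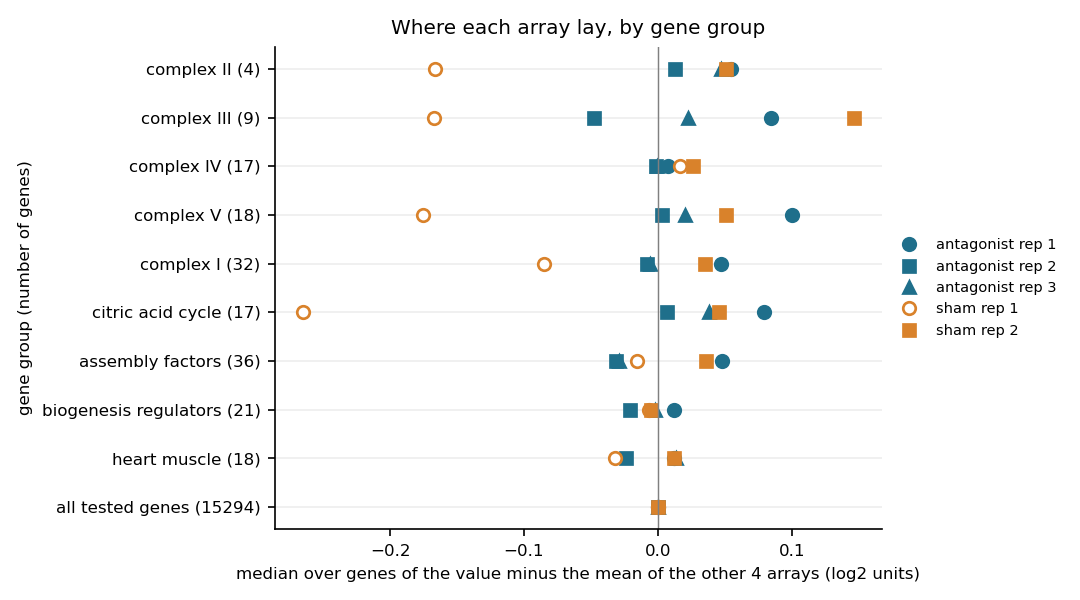
For each gene group (rows, number of genes in brackets), the median over its genes of the value on an array minus the mean of the other 4 arrays (horizontal axis, log2 units), with antagonist arrays in blue and sham arrays in orange. Sham replicate 1 (open circles) lies at -0.17 to -0.18 for complexes II, III and V and at -0.27 for the citric acid cycle, against 0.02 for complex IV and 0.00 for all tested genes. Within complex IV it is the lowest array for 6 genes and the highest for 6.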

How the data were processed

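From each of 5 mouse hearts 300 ng of RNA was amplified and labelled for an Affymetrix array, per the labels' protocols. The authors deposited log2 values made with RMA, per the submitters' processing notes. For the software version, probe set library and build, the sources used here say nothing. RMA subtracts background, equalises the arrays' distributions and summarises probes by median polish, which can give equal values on several arrays. Of 41345 probes, 23521 had a single symbol in the platform annotation, covering 22180 genes. The symbols of all 49 members matched RefSeq (GRCm38.p6) by Entrez Gene identifier.

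Genes whose mean reached the 40th percentile over the probes of the table (3.42) were tested, 15294 in number. The two-sided test was limma's (version 3.58.1, R 4.3.3; lmFit, then eBayes) without covariates, and p-values were adjusted by Benjamini-Hochberg over all tested genes, with a threshold of 0.05. The prior degrees of freedom were 0.69, beside 3 residual ones. Exact permutation tests compared absolute mean differences over 10 divisions of the arrays, so that the smallest p is 0.1. The script was tested on simulated data.

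The members, gene lists and alternatives were chosen with earlier results of these data known. Values per array were printed for complex II, Cyc1, Cycs, the tissue isoforms and, in complexes III to V, up to 3 genes per direction with groups that do not overlap, or else the largest differences. Other members were added after their values were seen. In the other lists the 3 genes of smallest p and Ppargc1a, Esrra, Nrf1 and Tfam were named. Alternatives were other level filters, a second quantile normalization, centring, the mean of a symbol's probes, trended and robust eBayes, array weights, a replicate block, membership without pseudogenes or dim genes, and leaving out each array.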

Additional observations from a re-analysis of the deposited data

How the results depend on the processing

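The count of 0 genes past the threshold (704 at an unadjusted p under 0.05) stayed at 0 under the other level filters, a second quantile normalization, centring, the mean of a symbol's probes, trended and robust eBayes, and array weights. With single arrays left out it ranged from 0 to 2058, with 1319 without sham replicate 1 and 2058 without sham replicate 2. There the lone sham heart takes its spread from the antagonist hearts. With single arrays left out the median difference was 0.0029 to 0.16 for complex II, -0.11 to 0.14 for complex III, -0.0342 to -0.0100 for complex IV, 0.0060 to 0.16 for complex V and -0.0333 to 0.0680 for all members. Complex IV also moved to -0.0113 after a second quantile normalization and to -0.0342 with the mean of a symbol's probes, and the cause was not tested. A second quantile normalization turned the sign for Cyc1 (-0.0006), Cycs (0.0345) and Cox6a2 (0.0220). Leaving out single arrays turned it for Sdhb (-0.0189 to 0.32), Sdhc (-0.15 to 0.0999), Sdhd (-0.0448 to 0.0151), Cyc1 (-0.11 to 0.14), Uqcrfs1 (-0.13 to 0.30), Cox4i1 (-0.0333 to 0.37), Cox6b1 (-0.0612 to 0.0440), Cox6b2 (-0.0568 to 0.0235), Cox7a1 (-0.11 to 0.0022), Cox7a2 (-0.12 to 0.60), Cox7a2l (-0.0794 to 0.20), Atp5g1 (-0.0498 to 0.0917), Atp5g2 (-0.16 to 0.31) and Atp5h (-0.15 to 0.0117). Of the 33 members followed, 7 gained a call without sham replicate 2 and 1 without sham replicate 1. The groups share replicate numbers 1 and 2, but nothing in the labels ties such arrays together, and the deviations of same-numbered arrays from their group means correlated at -0.108 and 0.0271 over genes. With the replicate block 0 genes passed, and the medians were 0.0737 for complex II, 0.0503 for complex III, -0.0100 for complex IV, 0.0479 for complex V and 0.0419 for all members. These medians equal those without antagonist replicate 3, which is alone in its block and so adds nothing to the difference. The block fit also leaves fewer residual degrees of freedom, and is no separate check.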
